A study of Mus musculus with 4 samples.

Results

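The genes described here encode nucleoporins, the proteins that build the nuclear pore complex, and the receptors that carry proteins and RNA through it. Members were taken by name: rows whose gene name starts with Nup and a digit, Kpna, Kpnb, Ipo, Tnpo, or Xpo and a digit, with Xpo5 left out. This gave 41 of 22739 named genes, 20 nucleoporin genes and 21 receptor genes, each held by a single row, on 15 chromosomes. Expression was measured in CCE, a line of mouse embryonic stem (ES) cells from strain 129SV, cultured on gelatin with leukemia inhibitory factor and 15% serum. Tex10 was depleted by a hairpin RNA in 2 libraries (shTex10), and 2 control libraries received a hairpin aimed at luciferase, which mouse cells lack (shLuci). The labels give a single knockdown name per target in 1 cell line, so actions of the hairpin on transcripts besides Tex10 cannot be told apart from those of Tex10 loss. The series concerns Tex10 at super-enhancers in pluripotent cells.

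Nuclear pores hold a scaffold of a membrane ring, an inner ring and a Y-shaped complex, which carries filaments on the cytoplasmic side and a basket on the nuclear side. Importins bind cargo in the cytoplasm and release it in the nucleus when the small GTPase Ran binds them in its GTP form, while exportins bind cargo together with Ran-GTP and release it after hydrolysis. In mouse ES cells the importin alpha gene Kpna2 is known to be the main member of its family, and its product carries Oct4 into the nucleus.

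Most transcripts of this transport machinery that passed the test were lower in shTex10 than in shLuci. Tex10 itself measured 11.6 and 13.4 FPKM in shTex10, against 77.3 and 82.1 FPKM in shLuci, so 15.7% of its mean remained. FPKM counts fragments relative to transcript length and to the mapped fragments of the library. Of 39 members with a mean of at least 1 FPKM, 26 fell, 1 rose and 12 were not called (limma on log2(FPKM + 1), Benjamini-Hochberg adjusted p under 0.05 over 11883 genes). Over all genes tested, 31.8% were called lower and 19.8% higher. The median log2 change of the members was -0.43, against -0.14 for all genes tested, a distance of -0.29. Among the 8542 genes with a mean of at least 5 FPKM, which include all 39 members, 36.5% were called lower. The median of those genes was -0.20, which leaves a distance of -0.23. Most falls were moderate: 1 member, Nup210, fell by more than 1 on the log2 scale. All log2 changes are shTex10 minus shLuci of log2(FPKM + 1), which understates changes of low genes. In bulk RNA, a smaller share of cells that express a gene and less RNA per cell cannot be told apart.

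Both shTex10 libraries lay below both shLuci libraries for 32 of the 39 members and above them for 1. Over all genes tested this held for 48.1% below and 28.3% above. The groups overlapped for the other 6 members. Summed over the 41 members, FPKM came to 2091.2 and 2213.6 in shTex10, against 2923.4 and 3100.1 in shLuci. As a share of the FPKM of all named genes, a measure that a common scale factor cannot move, the members took 0.398% and 0.412% in shTex10, against 0.476% and 0.491% in shLuci. The members thus made up a smaller part of the named transcriptome in both shTex10 libraries.

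The number of members called changed with how the libraries were scaled. Named rows summed to 525877.9 and 537691.6 FPKM in shTex10, against 613641.9 and 632066.5 FPKM in shLuci. With each library rescaled to the same named sum, 15 members were called lower and 1 higher, against 16.0% and 27.2% of all genes, and the median of all genes moved to 0.06. Of all calls, 62.9% were higher after that rescaling, against 38.3% as deposited. Under quantile normalization 15 members were again called lower and 1 higher, beside 24.5% of all genes called lower. With a common sum over all rows, in which unnamed rows hold 56.3% to 71.6% of FPKM, limma called 0 members lower and 0 higher, with 4 at an unadjusted p under 0.05, beside 1.99% of all genes called lower. All rows summed to 1798452.3 and 1722505.8 FPKM in shTex10, against 1403758.9 and 2224871.6 FPKM in shLuci. That rescaling thus divided the shLuci replicates by unlike sums, and the part of this in the lost calls was not tested. The medians of the members were -0.20 with the named sum, -0.21 with quantile normalization and -0.42 with the sum over all rows. Those of all genes were 0.06, -0.08 and -0.13 in the same order. The distance from all genes was thus -0.26 with the named sum, -0.13 with quantile normalization and -0.29 with the sum over all rows.

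**Figure D1:**
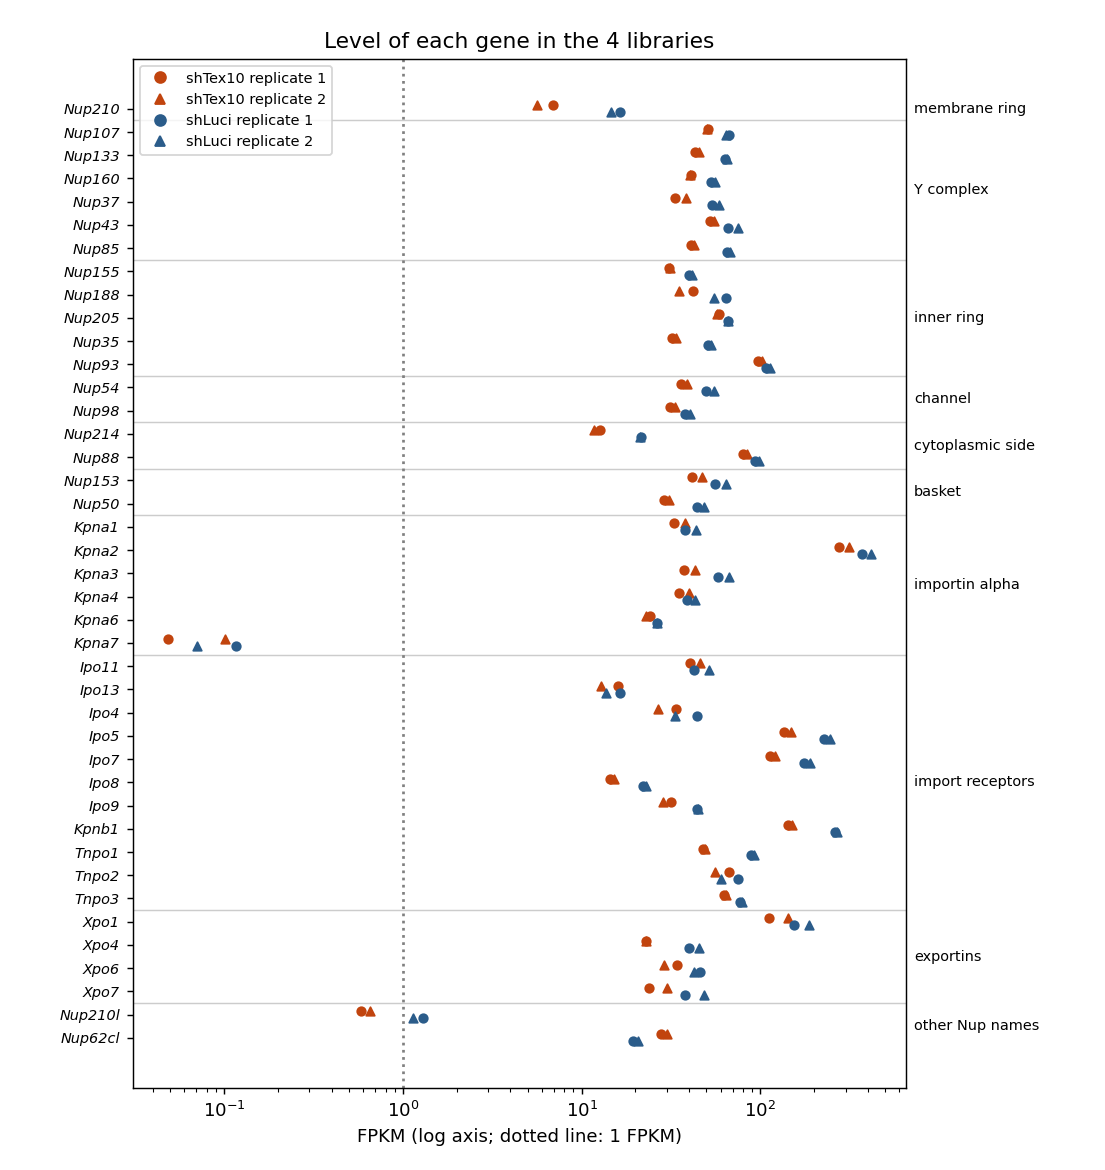
FPKM on a log axis for each of the 41 genes in the 4 libraries, with shTex10 in red above shLuci in blue, circles for replicate 1 and triangles for replicate 2. Kpna2 is highest at 275 to 416 FPKM, Kpna7 is lowest at 0.0484 to 0.116 FPKM, and Nup62cl is the gene with both shTex10 values above both shLuci values.

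Libraries carried ES cell markers in both groups. Pou5f1, Sox2, Nanog, Zfp42, Esrrb and Dppa5a summed to 3850 and 4236 FPKM in shTex10, against 4575 and 5033 FPKM in shLuci. Dppa5a held most of each sum and was not called, at 2467 and 2917 FPKM in shTex10, against 2432 and 2999 FPKM in shLuci. Sox2 was not called either, at 83.3% of the shLuci mean. The other 4, Pou5f1 (64.3%), Nanog (63.3%), Zfp42 (60.6%) and Esrrb (62.7% of the shLuci mean), were called lower, beside 31.8% of all genes. All 6 markers of the 2-cell-like state and all 6 tested of 8 trophectoderm markers were called higher in shTex10, beside 19.8% of all genes. Their summed levels were 567 and 611 FPKM in shTex10, against 78.3 and 87.5 FPKM in shLuci for the 2-cell-like state, and 587 and 577 FPKM in shTex10, against 258 and 267 FPKM in shLuci for trophectoderm. Of the trophectoderm list, Cdx2 and Elf5 had a mean below 1 FPKM and were not tested. Cdx2 measured 1.49 and 1.43 FPKM in shTex10, against 0.332 and 0.46 FPKM in shLuci, and Elf5 stayed under 1 FPKM in each library. The 7 fibroblast markers summed to 31.9 to 43.5 FPKM in shTex10 and 28.2 to 37.0 FPKM in shLuci. The 5 primitive endoderm markers were each under 1 FPKM in each library. The part of these shifts in cell state in the results was not tested. The libraries are described as biological replicates, with nothing on whether they were cultured apart, and the p-values reflect only how far these samples scatter. With 2 libraries against 2, the lowest two-sided exact permutation p is 0.33.

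Promoters are shown for 4 genes on which the results turn: Kpnb1 and Kpna2, the partners of classical import and the most abundant members, Tnpo1, the member with the smallest p, and Nup62cl, the member that rose. Each line gives the 250 bases before the start of transcription, 5′ to 3′, from RefSeq on GRCm38.p6, with CCAAT boxes on either strand (CCAAT or ATTGG, the motif bound by NFY) in capitals.
Kpnb1 (chr11:97187893-97188142, minus strand): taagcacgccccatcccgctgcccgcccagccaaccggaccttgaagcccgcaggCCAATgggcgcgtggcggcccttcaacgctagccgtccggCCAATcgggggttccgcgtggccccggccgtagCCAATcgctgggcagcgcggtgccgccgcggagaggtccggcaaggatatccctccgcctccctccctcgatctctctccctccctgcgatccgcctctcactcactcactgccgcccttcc
Kpna2 (chr11:106999526-106999775, minus strand): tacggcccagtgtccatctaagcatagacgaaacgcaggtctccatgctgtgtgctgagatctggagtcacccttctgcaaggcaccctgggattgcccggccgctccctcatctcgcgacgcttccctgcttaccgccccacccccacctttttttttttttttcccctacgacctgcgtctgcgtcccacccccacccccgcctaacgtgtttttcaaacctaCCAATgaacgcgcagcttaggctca
Tnpo1 (chr13:98926385-98926634, minus strand): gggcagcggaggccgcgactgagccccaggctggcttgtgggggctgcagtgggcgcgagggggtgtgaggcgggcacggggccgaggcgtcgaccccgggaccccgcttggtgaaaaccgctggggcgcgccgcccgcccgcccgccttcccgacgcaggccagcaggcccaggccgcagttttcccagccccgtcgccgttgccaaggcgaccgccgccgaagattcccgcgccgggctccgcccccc
Nup62cl (chrX:140062569-140062818, minus strand): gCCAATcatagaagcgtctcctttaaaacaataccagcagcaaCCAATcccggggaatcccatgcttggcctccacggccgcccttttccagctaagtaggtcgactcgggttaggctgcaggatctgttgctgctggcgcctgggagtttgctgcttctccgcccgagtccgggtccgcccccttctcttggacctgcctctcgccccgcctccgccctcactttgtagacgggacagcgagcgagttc
The Kpnb1 window holds 3 CCAAT boxes, that of Nup62cl holds 2, that of Kpna2 holds 1 and that of Tnpo1 holds 0, so the motif occurs in genes that fell and in the one that rose. Of 27025 genes in the promoter table, 37.5% hold a CCAAT box in at least 1 such window. The other motifs, searched on both strands, had no match in these 4 windows. They were the E-box letters CACGTG, held by 6.86% of genes in the table, the ETS-type letters CCGGAAG (7.83%), the NRF1-type letters GCATGCGC (2.56%), the E2F-type letters TTTCCCGC (1.03%) and the TATA box, searched as TATAAA (14.3%). The table had entries for 32 of the 41 members, and no comparison of the members with other genes is given. Tnpo1 has another start in that table, and its window holds 0 of the motifs too.

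Nup210 encodes a membrane-spanning nucleoporin that is known for low levels in ES cells and for induction during differentiation to neural and muscle cells. It had the largest fall of all members (XLOC_022927, mm9 chromosome 6, 90963060 to 91066820). Nup210 measured 6.90 and 5.61 FPKM in shTex10, against 16.4 and 14.6 FPKM in shLuci. The groups were far apart, and the mean in shTex10 was 40.3% of that in shLuci (log2 change -1.19, SE 0.12, limma with Benjamini-Hochberg adjusted p = 0.00121). Of all genes tested, 1.7% had a lower change. Its germline paralog Nup210l stayed below the level filter, at 0.583 and 0.659 FPKM in shTex10, against 1.30 and 1.14 FPKM in shLuci, and was not tested.

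All 6 members of the Y complex, the outer scaffold of the pore, fell as deposited, beside 31.8% of all genes. Their median log2 change was -0.47, beside -0.14 for all genes. Nup85 measured 41.2 and 42.7 FPKM in shTex10, against 64.8 and 67.3 FPKM in shLuci (log2 change -0.64, SE 0.08, adjusted p = 0.00249). Nup37 had nearly the same change, with 33.5 and 38.2 FPKM in shTex10, against 53.5 and 59.1 FPKM in shLuci (log2 change -0.64, SE 0.11). Nup133, which mouse embryos need for neural differentiation, measured 43.3 and 45.4 FPKM in shTex10, against 63.8 and 65.1 FPKM in shLuci (log2 change -0.53, SE 0.08). These 3 remained called after rescaling to the named sum, where the other 3 lost their call while all 6 signs stayed negative. Nup160 (log2 change -0.41), Nup43 (-0.38) and Nup107 (-0.35) were the weaker members as deposited. Without shLuci replicate 2, Nup160 lost its call (limma, adjusted p = 0.0593), as did Nup43 (0.155) and Nup107 (0.0562). Nup43 was also lost without shTex10 replicate 1 (0.0772), and Nup107 without shLuci replicate 1 (0.106), shTex10 replicate 1 (0.0655) and shTex10 replicate 2 (0.0806).

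The inner ring, which anchors the scaffold to the membrane and the channel, was uneven. Nup35 fell, with 32.2 and 33.8 FPKM in shTex10, against 51.0 and 52.8 FPKM in shLuci (log2 change -0.64, SE 0.09, limma with adjusted p = 0.00263). Nup188 fell by 0.61 (SE 0.13), with 42.0 and 35.3 FPKM in shTex10, against 63.9 and 55.3 FPKM in shLuci. Nup155 fell by 0.38 (SE 0.08), a call lost without shLuci replicate 2 (adjusted p = 0.0768), shTex10 replicate 1 (0.0557) or shTex10 replicate 2 (0.0512). Its partner genes Nup93 and Nup205 were not called. Nup93, the most abundant nucleoporin transcript of the set, measured 97.6 and 102 FPKM in shTex10, against 107 and 114 FPKM in shLuci (log2 change -0.15, SE 0.09), and Nup205 had a log2 change of -0.19 (SE 0.08). The groups did not overlap for Nup93 or Nup205, but the differences lay near the median of all genes and changed sign under quantile normalization (0.13 and 0.03) and with the named sum (0.08 and 0.04). Nup35 was the inner ring gene still called under both of those scalings.

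Among genes of the central channel, whose disordered repeats fill the pore, Nup54 fell and Nup98 was not called. Nup54 measured 36.0 and 39.1 FPKM in shTex10, against 49.4 and 54.8 FPKM in shLuci (log2 change -0.46, SE 0.10), and lost its call without shLuci replicate 2 (limma, adjusted p = 0.0538), with quantile normalization (0.0931) and with the named sum (0.0793). Nup98, whose precursor is also the source of the Y complex protein Nup96, measured 31.2 and 33.4 FPKM in shTex10, against 37.9 and 40.5 FPKM in shLuci (log2 change -0.27, SE 0.09, adjusted p = 0.0516). Nup62, the best known channel gene, shares its row with Il4i1 and so lies outside the members. That row measured 94.6 and 79.0 FPKM in shTex10, against 123 and 108 FPKM in shLuci, a value that cannot be divided between the genes.

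The cytoplasmic and nuclear faces of the pore each held a gene with a clear fall. Nup214, a docking site for export complexes, measured 12.7 and 11.7 FPKM in shTex10, against 21.4 and 21.1 FPKM in shLuci (log2 change -0.75, SE 0.09, limma with adjusted p = 0.00186). Nup88, which anchors Nup214, was not called, with 79.7 and 84.8 FPKM in shTex10, against 93.6 and 98.4 FPKM in shLuci (log2 change -0.22, SE 0.09; 0.05 under quantile normalization and 0.01 with the named sum). The transcripts of this pair therefore had changes of different size, a difference to which no test was applied. In the nuclear basket Nup50, a cofactor that helps release import cargo, measured 28.8 and 30.9 FPKM in shTex10, against 44.4 and 48.2 FPKM in shLuci (log2 change -0.62, SE 0.09). Nup153, a basket protein that binds chromatin in mouse ES cells, fell by 0.42 (SE 0.11), a call lost without shLuci replicate 2 (adjusted p = 0.112), without shTex10 replicate 1 (0.084), with median scaling (0.0505), with quantile normalization (0.165) and with the named sum (0.161).

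Nup62cl was the exception. This X-linked gene carries a sequence related to the C-terminal part of Nup62, and its role is not given in the sources used here. Nup62cl (XLOC_030273, mm9 chromosome X, 136541331 to 136597257) measured 27.7 and 30.0 FPKM in shTex10, against 19.4 and 20.7 FPKM in shLuci, without overlap. It rose by 0.50 (SE 0.09, limma with adjusted p = 0.00729), and 85.7% of genes tested had a lower change. The rise was 0.72 with the named sum and 0.65 with quantile normalization, both called.

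**Figure D2:**
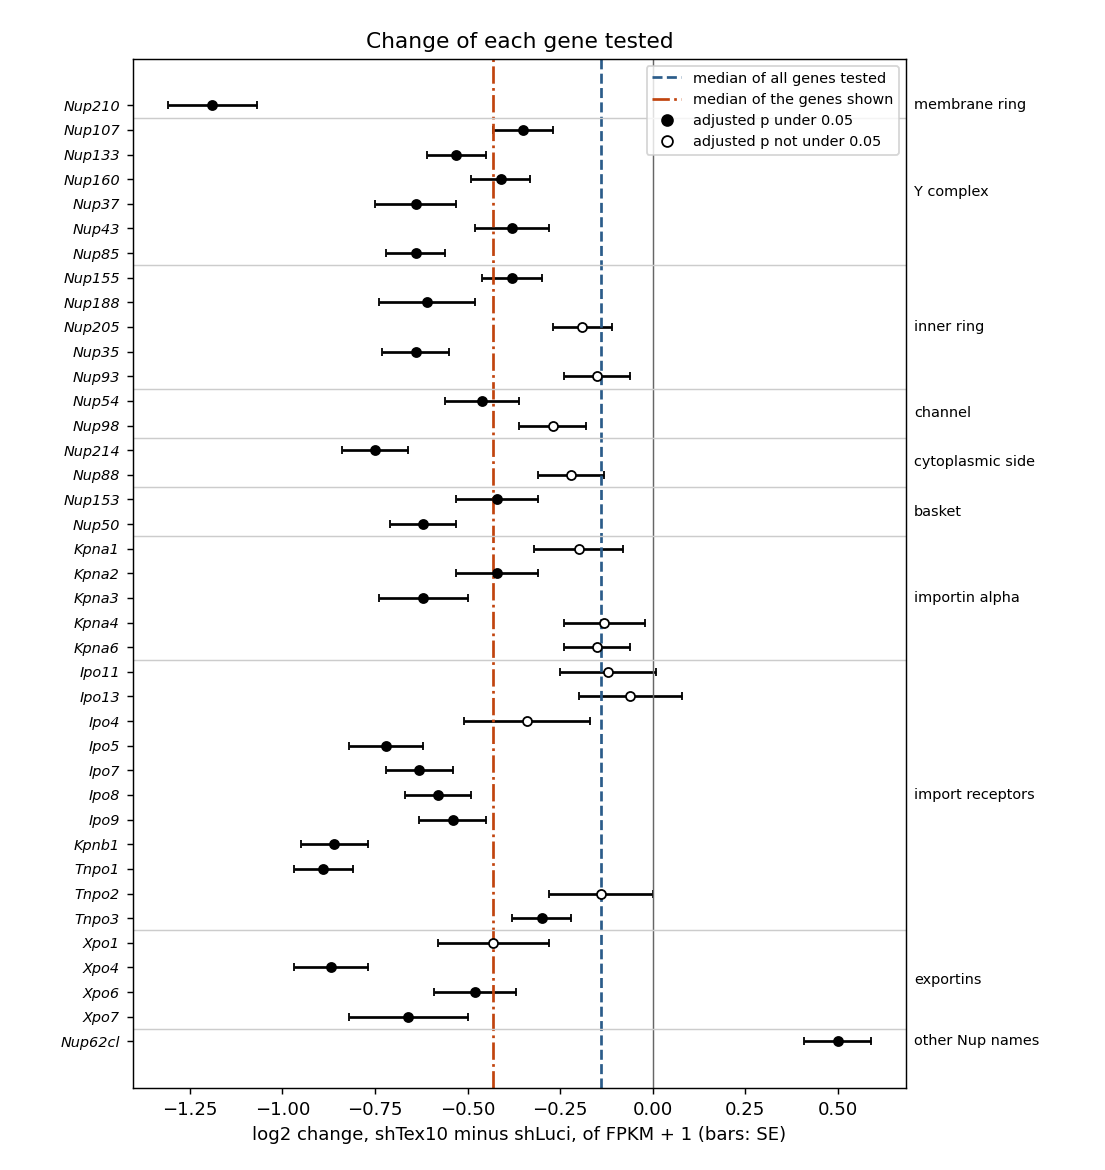
Log2 change of FPKM + 1, shTex10 minus shLuci, for the 39 genes tested, ordered by role, with bars for the SE and filled points for an adjusted p under 0.05. The dashed line marks the median of all genes tested at -0.14 and the dash-dotted line that of the genes shown at -0.43; 38 points lie below 0 and 1, Nup62cl, above it.

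Importin alpha proteins read the classical nuclear localization signal and link cargo to importin beta. Kpna2 supplied most of the family's transcript in both groups, 67.9% and 68.4% of summed importin alpha FPKM in shTex10, against 69.7% and 69.8% in shLuci. Kpna2 (XLOC_004895, mm9 chromosome 11, 106849942 to 106860839) measured 275 and 312 FPKM in shTex10, against 371 and 416 FPKM in shLuci. It fell to 74.5% of the shLuci mean (log2 change -0.42, SE 0.11, limma with adjusted p = 0.0227). The call was lost without shLuci replicate 2 (adjusted p = 0.0862), without shTex10 replicate 1 (0.104), with the named sum (0.16) and with quantile normalization (0.556), where the log2 change was -0.07. A processed pseudogene of Kpna2 is annotated, and whether reads are shared with it was not tested.

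Kpna3 had the larger fall in the family, with 37.4 and 43.4 FPKM in shTex10, against 58.2 and 66.8 FPKM in shLuci (log2 change -0.62, SE 0.12, limma with adjusted p = 0.00807), and it was called with the named sum and with quantile normalization too. Kpna1, the importin alpha that is known to replace Kpna2 during neural differentiation of mouse ES cells, measured 33.0 and 37.9 FPKM in shTex10, against 37.8 and 43.7 FPKM in shLuci, with overlapping groups (log2 change -0.20, SE 0.12). Kpna4 (log2 change -0.13) and Kpna6 (-0.15) were not called either. With the named sum the changes of Kpna1, Kpna4 and Kpna6 were 0.02, 0.09 and 0.07. Kpna7, the form of oocytes and early embryos, stayed at 0.0484 and 0.101 FPKM in shTex10, against 0.116 and 0.0705 FPKM in shLuci, too low to test.

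Ratios within a library do not depend on its scale and give the balance of the family. The ratio of Kpna2 to Kpna1 was 8.33 and 8.24 in shTex10, against 9.81 and 9.53 in shLuci. The ratio of Kpna2 to Kpna3 was 7.35 and 7.20 in shTex10, against 6.38 and 6.24 in shLuci. Kpna2 was thus lower relative to Kpna1 and higher relative to Kpna3 in shTex10, without overlap in either ratio. The ratio of Kpnb1 to summed importin alpha was 0.350 and 0.329 in shTex10, against 0.494 and 0.451 in shLuci. No test was applied to these ratios.

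Kpnb1 encodes importin beta, the carrier that takes the importin alpha and cargo complex through the pore. Kpnb1 (XLOC_004717, mm9 chromosome 11, 97021023 to 97049206) measured 142 and 150 FPKM in shTex10, against 263 and 269 FPKM in shLuci. The replicates lay close together, and the shTex10 mean was 54.8% of the shLuci mean (log2 change -0.86, SE 0.09, limma with adjusted p = 0.00102). Tnpo1, transportin 1, imports RNA-binding proteins with PY signals. Tnpo1 (XLOC_007542, mm9 chromosome 13, 99608459 to 99696339) measured 47.6 and 49.3 FPKM in shTex10, against 88.7 and 92.3 FPKM in shLuci (log2 change -0.89, SE 0.08, adjusted p = 0.000911). Its close paralog Tnpo2 was not called, with 66.7 and 55.7 FPKM in shTex10, against 74.9 and 60.5 FPKM in shLuci, and the groups overlapped (log2 change -0.14, SE 0.14; 0.07 under quantile normalization and 0.08 with the named sum). Without shLuci replicate 1 the change of Tnpo2 was 0.01. The ratio of Tnpo1 to Tnpo2 was 0.713 and 0.885 in shTex10, against 1.18 and 1.53 in shLuci. By FPKM, Tnpo2 was thus the higher of the pair in shTex10 and Tnpo1 in shLuci. The transcripts differ in GC content, at 40.4% for Tnpo1 and 53.5% for Tnpo2, and the part of this in the ratio was not tested. Tnpo3, which imports splicing factors of the SR family, fell by 0.30 (SE 0.08), and lost its call whichever library was left out (limma, adjusted p = 0.107 to 0.165), with median scaling (0.071) and with the named sum (0.448).

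Other import receptors carry ribosomal proteins, histones and other basic cargo. Ipo5, a receptor for ribosomal proteins and histones, measured 136 and 149 FPKM in shTex10, against 227 and 245 FPKM in shLuci (log2 change -0.72, SE 0.10, limma with adjusted p = 0.0026). Ipo7, which carries ribosomal proteins and, with importin beta, linker histone H1, measured 114 and 121 FPKM in shTex10, against 176 and 190 FPKM in shLuci (log2 change -0.63, SE 0.09). Neither gene's groups came near overlapping, and Ipo5 and Ipo7 ranked directly after Kpna2 and Kpnb1 in mean level. Ipo8 (log2 change -0.58, SE 0.09) and Ipo9, a receptor for histones H2A and H2B (log2 change -0.54, SE 0.09), fell by similar amounts. Ipo5, Ipo7, Ipo8 and Ipo9 were each called with the named sum and with quantile normalization.

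The remaining import receptors were not called. Ipo4, known for the import of histones H3 and H4, measured 33.9 and 26.8 FPKM in shTex10, against 44.4 and 33.4 FPKM in shLuci (log2 change -0.34, SE 0.17), and the replicates of each group differed widely. Ipo4 was called without shLuci replicate 2 and without shTex10 replicate 1, fits in which 1 group has no scatter of its own. Ipo11 (log2 change -0.12; 0.11 with the named sum) and Ipo13 (-0.06; 0.15 with the named sum), which carry enzymes of the ubiquitin and SUMO systems among other cargo, had overlapping groups. Ipo13 was 0.06 without shLuci replicate 1 and 0.07 without shTex10 replicate 2, and Ipo11 was 0.02 without shLuci replicate 2. Of the 11 receptors of the importin beta family in the set, 7 fell and 4 were not called, beside 31.8% lower over all genes. With the named sum, and likewise with quantile normalization, 6 were called lower, beside 16.0% and 24.5% of all genes.

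Exportins were lower as well, with 3 of 4 called as deposited, beside 31.8% of all genes. With the named sum, and likewise with quantile normalization, 1 of the 4 was called lower, beside 16.0% and 24.5% of all genes. Xpo1 encodes CRM1, the general exportin for proteins with leucine-rich export signals and for ribosomal subunits. Xpo1 measured 112 and 142 FPKM in shTex10, against 155 and 187 FPKM in shLuci, and the wide spread within each group left it short of the threshold (log2 change -0.43, SE 0.15, limma with adjusted p = 0.0581). Xpo1 was called without shLuci replicate 1 and without shTex10 replicate 2, fits in which 1 group has no scatter of its own. Xpo4, which exports several proteins and is known to import Sox2, measured 23.0 and 22.9 FPKM in shTex10, against 40.1 and 45.6 FPKM in shLuci (log2 change -0.87, SE 0.10, adjusted p = 0.00155). Xpo7 fell by 0.66 (SE 0.16), and Xpo6, the exportin of actin, fell by 0.48 (SE 0.11). Xpo4 was the exportin still called with the named sum, where Xpo7 (adjusted p = 0.0655) and Xpo6 (0.152) were not, and Xpo6 was also lost without shTex10 replicate 2 (0.0703).

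In both groups the difference between replicates followed base composition. Replicate 2 was above replicate 1 in both groups for 26 of the 39 members, below it in both for 9 and in opposite directions for 4. Over the 11883 genes tested, the counts in the same order were 4578, 4805 and 2490. The mean difference correlated with the GC content of the longest coding transcript in GENCODE M21 across the 39 members (Spearman's rho -0.75) and across 10665 genes tested that have one (rho -0.74). These are descriptions across genes of the same 4 libraries. Ipo13, at 57.5% GC, was lower in replicate 2 by 0.28 in shTex10 and 0.26 in shLuci on the log2 scale, while Xpo1, at 40.4% GC, was higher by 0.34 in shTex10 and 0.26 in shLuci. The log2 change between groups had no such relation to GC content across the members (rho 0.04) or across all genes (rho 0.02). Mean level and log2 change were unrelated among members (rho -0.03), against rho -0.28 over all genes tested.

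**Figure D3:**
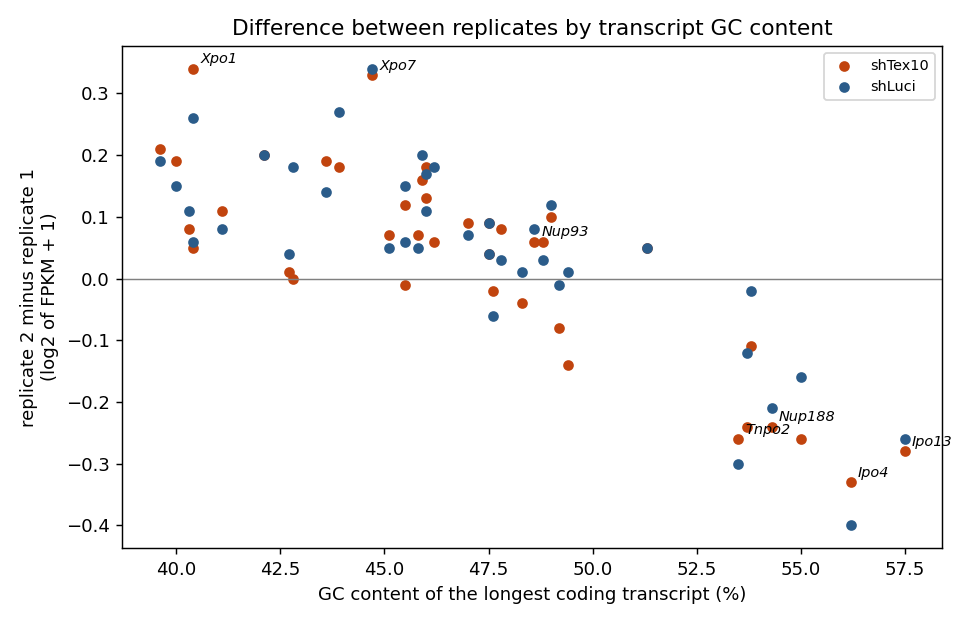
Replicate 2 minus replicate 1, as log2 of FPKM + 1, against the GC content of the longest coding transcript, for the 39 genes tested in shTex10 (red) and shLuci (blue). Genes of low GC content such as Xpo1 lie above 0 and genes of high GC content such as Ipo4 and Ipo13 lie below 0 in both groups.

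The Ran cycle, which powers the receptors, was read from a list of 8 genes: 6 fell, 1 rose and 1 was not called, at a median log2 change of -0.64 beside -0.14 for all genes. Ranbp1, which helps Ran hydrolyse GTP, measured 252 and 269 FPKM in shTex10, against 440 and 503 FPKM in shLuci (log2 change -0.85, SE 0.10, limma with adjusted p = 0.00195). Rangap1, the activator of that hydrolysis, fell by 0.70 (SE 0.09), and Rangrf, which binds Ran in the nucleus, by 1.15 (SE 0.15). Ranbp3, a cofactor of export by CRM1, went the other way, with 132 and 109 FPKM in shTex10, against 81.3 and 72.4 FPKM in shLuci (log2 change 0.64, SE 0.12). Ran measured 324 and 376 FPKM in shTex10, against 501 and 547 FPKM in shLuci. Rcc1, the exchange factor that loads Ran with GTP, measured 125 and 99.6 FPKM in shTex10, against 216 and 189 FPKM in shLuci, and both genes were called lower. With the named sum 5 of the 8 genes were called lower and 1 higher. The share called over all genes was 31.8% lower and 19.8% higher as deposited, and 16.0% lower and 27.2% higher with the named sum.

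**Figure D4:**
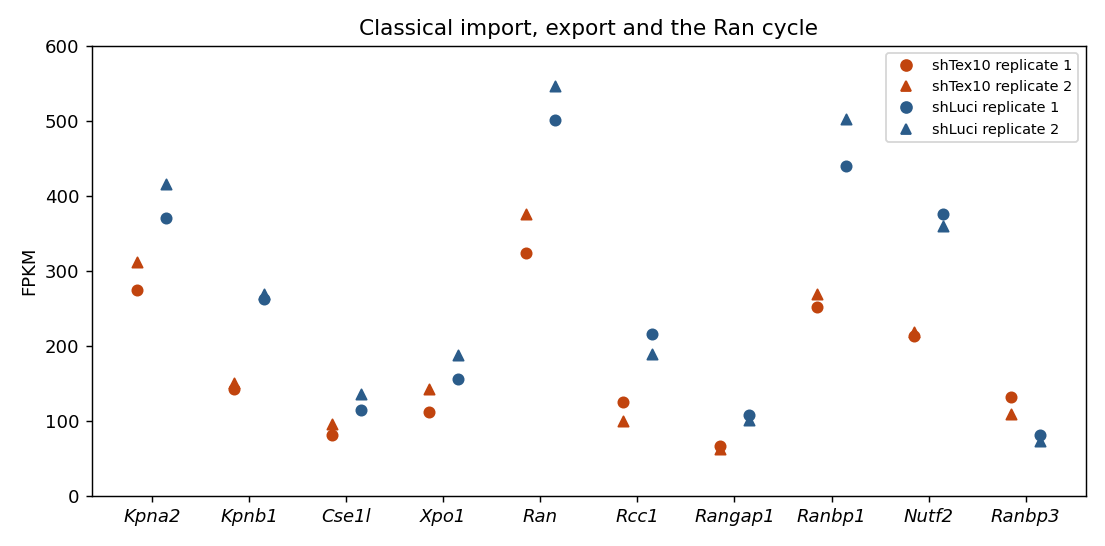
FPKM in each library, shTex10 in red left of shLuci in blue, for Kpna2, Kpnb1, the exportin genes Cse1l and Xpo1, and genes of the Ran cycle. Shown genes are lower in both shTex10 libraries than in both shLuci libraries except Ranbp3, at 132 and 109 FPKM in shTex10 and 81.3 and 72.4 FPKM in shLuci.

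Among 8 tested receptors and cofactors that carry other names, 4 fell, 1 rose and 3 were not called, beside 31.8% lower and 19.8% higher over all genes. With the named sum, and likewise with quantile normalization, 1 was called lower and 1 higher. Over all genes, 16.0% were called lower and 27.2% higher with the named sum. Quantile normalization called 24.5% of all genes lower and 2404 of 11883 higher. Nutf2, which returns Ran to the nucleus, measured 213 and 219 FPKM in shTex10, against 376 and 360 FPKM in shLuci (log2 change -0.77, SE 0.09). Nxt1, a partner of the messenger RNA (mRNA) exporter NXF1, fell by 0.46 (SE 0.09), a call lost without shLuci replicate 2 (limma, adjusted p = 0.0509), while its relative Nxt2 rose by 0.63 (SE 0.16), with 7.42 and 8.93 FPKM in shTex10, against 4.22 and 5.71 FPKM in shLuci. Cse1l, the exportin that returns importin alpha to the cytoplasm, measured 80.3 and 95.4 FPKM in shTex10, against 114 and 135 FPKM in shLuci, and was called lower.

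Of 11 tested nucleoporin genes not named Nup and a number, 7 fell, 1 rose and 3 were not called, beside 31.8% lower and 19.8% higher over all genes. Rescaled to the named sum, 2 were called lower, beside 16.0% of all genes, and with quantile normalization 2, beside 24.5%. Seh1l, another Y complex gene, measured 43.6 and 45.3 FPKM in shTex10, against 71.2 and 79.0 FPKM in shLuci (log2 change -0.74, SE 0.09). Ahctf1, the gene of ELYS, which starts pore assembly on chromatin, fell by 0.72 (SE 0.10). Aaas, the gene of aladin, rose by 0.61 (SE 0.09), with 86.2 and 80.8 FPKM in shTex10, against 53.1 and 55.9 FPKM in shLuci. Nupl1, the gene of the channel protein Nup58, measured 29.3 and 34.7 FPKM in shTex10, against 110 and 48.7 FPKM in shLuci. The size of its fall rests on shLuci replicate 1: the log2 change was -1.18 (SE 0.36) with it and -0.60 without it, and -1.75 without shLuci replicate 2. Its call was lost with no filter on low values (limma, adjusted p = 0.0851).

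Of 15 tested genes of mRNA export (the TREX and TREX-2 complexes), 9 fell, 1 rose and 5 were not called, beside 31.8% lower and 19.8% higher over all genes. Under the named sum 4 were called lower, beside 16.0% of all genes, and 1 higher, beside 27.2%. Thoc7, with a log2 change of -0.90 (SE 0.13), Cetn2 (-0.76, SE 0.10) and the helicase gene Ddx39b (-0.58, SE 0.08) had the smallest p among those that fell. Thoc6 rose by 0.79 (SE 0.12), with 92.2 and 77.9 FPKM in shTex10, against 52.2 and 45.4 FPKM in shLuci, although its product works in the same THO complex as that of Thoc7. Of 15 genes of the nuclear envelope and lamina, 7 fell, 3 rose and 5 were not called, so the count that rose was near the background of 19.8%. With the named sum 4 were called lower and 4 higher, beside 16.0% and 27.2% of all genes. Lmnb1, the gene of lamin B1, measured 97.5 and 97.2 FPKM in shTex10, against 238 and 225 FPKM in shLuci (log2 change -1.24, SE 0.09). Lbr, the receptor of B-type lamins, fell by 0.73 (SE 0.10), whereas Syne1, the gene of nesprin-1, rose by 1.10 (SE 0.09), with 2.48 and 2.49 FPKM in shTex10, against 0.571 and 0.671 FPKM in shLuci. Over the 5 lists together 33 of 57 tested genes fell and 7 rose, beside 31.8% and 19.8% of all genes. After rescaling to the named sum 16 were lower and 8 higher, beside 16.0% and 27.2% of all genes.

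Of the 27 called members, 16 kept their call under each of 16 alternatives, with the common sum over all rows, a further alternative, set aside. These were Nup210, Nup214, Nup35, Nup37, Nup50, Nup85, Nup133, Nup62cl, Kpna3, Kpnb1, Tnpo1, Ipo5, Ipo7, Ipo8, Ipo9 and Xpo4. With that sum none of the 27 was called, and the lowest adjusted p of a member was 0.0685 (limma). The matching count over all genes called is not given here, so the 16 kept calls cannot be read as a trait of the members.

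**Figure D5:**
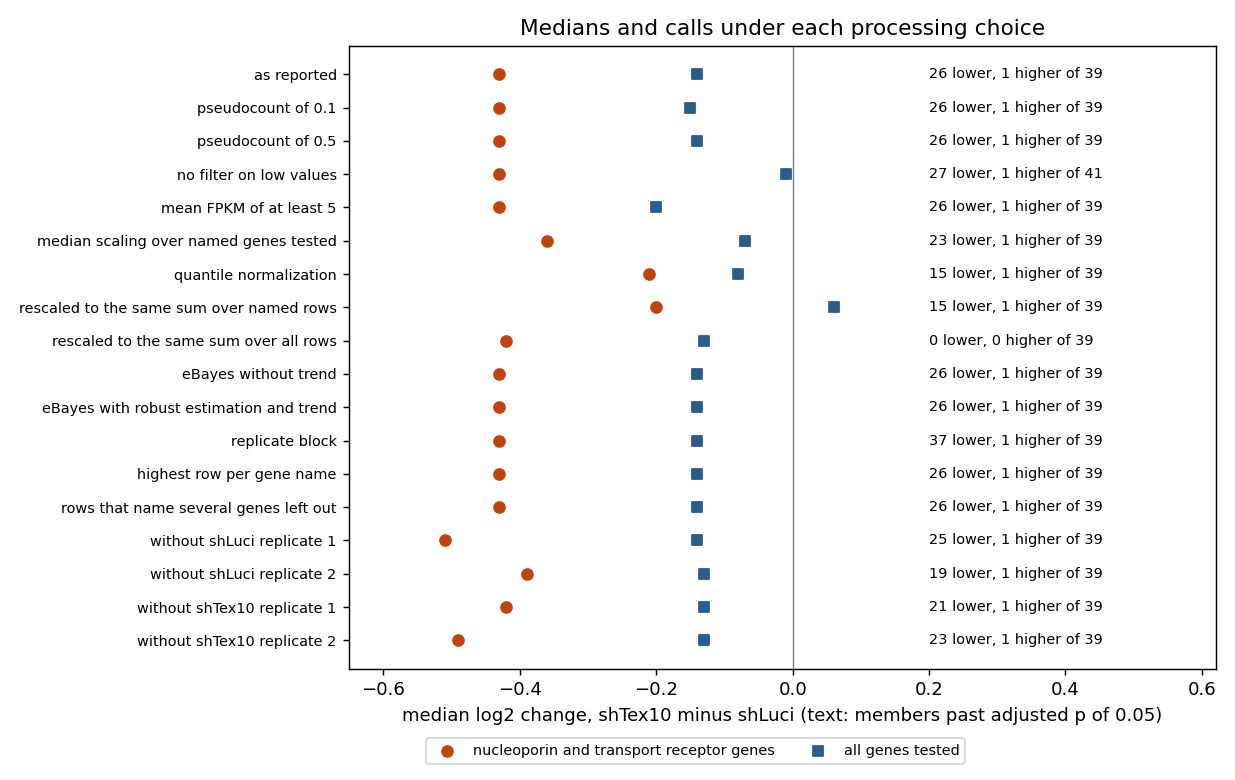
Median log2 change of the nucleoporin and receptor genes (red circles) and of all genes tested (blue squares) under each processing choice, with the counts of members called lower and higher written beside them. The circles lie between -0.51 and -0.20 and to the left of the squares in each row, and the count called lower runs between 0 and 37.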

How the data were processed

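RNA sequencing of poly(A)-selected RNA covered 4 libraries, read as 100-bp single ends per the labels' protocols. The authors deposited FPKM per library, made, per the submitters' processing notes, with Bowtie2 2.1.0, TopHat2 2.0.10 and Cufflinks 2.1.1 on mm9. No source used here states their options, the annotation or whether strand was used. Loci of Nup88, Nup98, Nup153, Ipo7 and Xpo7 overlap another named row, whose reads may not be separated.

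Rows without a gene name (56.3% to 71.6% of FPKM) were left out of tests, and rows sharing a name were summed. Genes with a mean of at least 1 FPKM (11883) entered limma 3.58.1 (R 4.3.3) as log2(FPKM + 1), without a replicate block, with a variance trend and Benjamini-Hochberg adjustment over all of them at 0.05. "Called" means past that threshold. The model was tested on simulated data. FPKM keep no read totals. From the smallest values of unnamed rows, taken as 1 read, shTex10 replicate 1 had roughly 83.2%, shTex10 replicate 2 had 91.7% and shLuci replicate 2 had 94.3% of the depth of shLuci replicate 1, with 4.97% to 11.2% of locus lengths at the ratio used.

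Members, lists and alternatives were chosen with earlier results of these data known. The rule named Tex10, the 3 smallest p per role, the 6 largest changes each way, the 5 highest levels, members below the filter and, per list, the 3 smallest p and the largest rise; other members are named to account for all 41. Ran, Rcc1, Cse1l and Nupl1 were named after their values were seen, as was the row holding Nup62. Of 60 listed genes, 57 have a row of their own, and Gle1, Nxf1 and Mcm3ap share rows and were left out. In fits without 1 library, the lone library is taken to vary like the other group. Their p-values are therefore not comparable with those from all 4 libraries.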

Additional observations from a re-analysis of the deposited data

How the results depend on the processing

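Of 17 alternatives, 8 (pseudocounts of 0.1 and 0.5, no filter, a mean FPKM of at least 5, no variance trend, robust estimation, the highest row per name, and rows naming several genes left out) left the direction and call of each tested member as reported. A minimum of 5 FPKM called 1292 of 8542 genes higher and 36.5% lower. Without any filter the members called lower were 27, the added one below the reported filter, and the listed genes called were 30 lower and 6 higher, with Nupl1 among those that lost their call.

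Scaling mattered most. The median of the members was -0.36 with median scaling, -0.21 with quantile normalization and -0.20 with the named sum. Those of all genes were -0.07, -0.08 and 0.06 in the same order. Quantile normalization called 15 members and 18 listed genes lower, beside 24.5% of all genes. The named sum called 1906 of all genes (16.0%), 15 members and 16 listed genes lower. The sum over all rows called 655 genes higher and 237 lower, 0 members higher, 0 members lower, 1 listed gene higher and 0 lower. Signs turned for uncalled members only. Under quantile normalization the changes were 0.09 for Ipo11, 0.04 for Ipo13, 0.01 for Kpna1, 0.07 for Kpna4, 0.03 for Nup205, 0.05 for Nup88, 0.13 for Nup93 and 0.07 for Tnpo2. With the named sum they were 0.11 for Ipo11, 0.15 for Ipo13, 0.02 for Kpna1, 0.09 for Kpna4, 0.07 for Kpna6, 0.04 for Nup205, 0.01 for Nup88, 0.08 for Nup93 and 0.08 for Tnpo2. Median scaling put Ipo13 at 0.00.

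Leaving out 1 library gave a median of the members of -0.51 to -0.39, beside -0.14 to -0.13 for all genes. Ipo13 lay between -0.20 and 0.07, Tnpo2 between -0.29 and 0.01 and Ipo11 between -0.25 and 0.02. The labels give replicates numbers but no shared batch or culture, and the differences between replicates 1 and 2 of the groups correlated across 11883 genes (r = 0.331). With the replicate number as a block, 5709 genes (48% of those tested) and 37 members were called lower and 3210 genes and 1 member higher. The 11 members gained include Xpo1 and Kpna1. The cause was not tested. With 2 libraries per group and no read totals, small differences at low FPKM cannot be resolved.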
